A study of Mus musculus with 11 samples.

Results

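Hepcidin and the genes of iron handling were followed through mouse liver injury in spatial transcriptomes of whole tissue sections. The group was 10 genes chosen by name. They included the hepcidin genes Hamp and Hamp2, and Bmp6 and Id1, a ligand and a target of the pathway that regulates Hamp. The other 6 were genes of iron transport, uptake, export and storage (Trf, Tfrc, Slc40a1, Cp, Fth1 and Ftl1). All 10 were among the 31053 genes of the count matrices, and all 10 passed the filter on low counts that left 14821 genes for testing. Visium, the assay used, captures the 3′ ends of polyadenylated transcripts on an array of barcoded spots under a snap-frozen tissue section, and each spot can hold several cells of different types. There were 11 liver sections. The uninjured group, labelled 0 h, had 3 (replicates 2, 3 and 4). After an overdose of acetaminophen (APAP, paracetamol), the 24 h and 36 h groups had 2 sections each, named A and B, while the 48 h group had 4, named A to D. APAP is a drug whose toxic metabolite kills hepatocytes around the central veins, and the injured sections carry the label POD. The study's methods describe adult mice, male unless stated otherwise, that were fasted before an intraperitoneal injection of APAP, and give 1 mouse per time point as the source of the sections. The labels do not tie sections to mice, slides or runs and do not say whether the uninjured livers came from fasted mice. Every p below therefore covers only the spread between sections, which may be technical. The methods give no clock time of injection or collection. Mouse, feeding state, time of day, batch and time after APAP cannot be told apart, and this holds for the 36 h group too.

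Hepcidin is a peptide hormone made by hepatocytes. It binds ferroportin, the product of Slc40a1 and the exporter that releases iron from cells, and causes its degradation, so that less iron reaches the blood. Transcription of Hamp is raised by bone morphogenetic proteins, chiefly BMP6 and BMP2 from sinusoidal endothelial cells, through SMAD proteins that also switch on Id1, and by interleukin-6 through STAT3. Iron travels in plasma on transferrin (Trf) and enters cells by the transferrin receptor (Tfrc). Ceruloplasmin (Cp) oxidises exported iron so that transferrin can bind it, and ferritin, a shell of heavy (Fth1) and light (Ftl1) chains, stores iron inside cells. Transcripts of ferritin, ferroportin and the transferrin receptor also carry iron-responsive elements, short hairpins bound by iron regulatory proteins when iron is scarce. Binding in the 5′ untranslated region (UTR) holds back translation, whereas binding in the 3′ UTR protects the transcript from decay.

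The mouse genome has a pair of hepcidin genes side by side on chromosome 7 (GRCm38, minus strand), Hamp at chr7:30942368-30944032 and Hamp2 at chr7:30922372-30924681. RefSeq promoter windows of 300 bases were found for 7 of the 10 genes, and those of Hamp and Hamp2 were 91.1% identical. They are shown because a 6-base element differed between them, while a second element beside it was the same. GGCGCC, the core of the BMP-responsive element, was found in Hamp, and TTCNNNGAA, the general STAT motif, in both. Capitals mark these places in the 60 bases below, which lie upstream of the RefSeq transcription start. The bases are at chr7:30944099-30944158 for Hamp and chr7:30924248-30924307 for Hamp2. The GENCODE span of Hamp2 given above begins further upstream, so by that annotation its 60 bases lie within the gene.
Hamp: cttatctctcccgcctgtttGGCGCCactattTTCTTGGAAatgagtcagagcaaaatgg
Hamp2: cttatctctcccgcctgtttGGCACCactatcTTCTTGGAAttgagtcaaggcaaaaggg
The aligned hexamer of Hamp2 differed by G4A, counted from 1 at the 5′ end of GGCGCC with the base of Hamp given first. The first capital lay 109 bases before the RefSeq start of Hamp and 106 before that of Hamp2. Searched on both strands, GGCGCC was present in 11.9% of 32851 RefSeq mouse promoters of this length and TTCNNNGAA in 8.3%. Among the other members with a window, Tfrc held GGCGCC and none held TTCNNNGAA. A match is a description of the sequence and was not tested as a binding site.

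The iron-responsive elements are shown because iron regulatory proteins can act on these 4 members' transcripts without transcription of the gene changing. A loop CAGTGN, with 5 bases on either side able to pair with each other (G with U allowed) and an unpaired C before them, was searched in the sense strand of GENCODE transcripts, and 1.34% of 21901 protein-coding genes held it. It was found once each in the 5′ UTR of Fth1 (chr19:9982732-9982760, plus strand), Ftl1 (chr7:45459779-45459807, minus strand) and Slc40a1 (chr1:45925465-45925493, minus strand), and 4 times in the 3′ UTR of Tfrc, of which the first is printed (chr16:32631219-32631247, plus strand). Capitals mark the 6 bases of the loop, and 6 bases on either side of the searched pattern are included.
Fth1: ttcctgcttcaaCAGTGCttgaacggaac
Ftl1: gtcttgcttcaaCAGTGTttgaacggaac
Slc40a1: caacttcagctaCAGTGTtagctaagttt
Tfrc: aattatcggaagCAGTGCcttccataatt

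Levels below are UMIs (unique molecular identifiers, which count captured molecules) summed over the spots of a section and expressed as CPM, counts per 1000000, after TMM scaling, which sets library sizes so that most genes do not change. Between 1490 and 3466 spots per section passed the filters, with totals of 31292663 to 67045372 UMIs. Counting error matters most for Bmp6, at 67 to 308 UMIs per section, for Tfrc, at 269 to 1246, and for Hamp2 at 24 h. Scaling matters in these data. On total counts alone, the median of all genes against 0 h was shifted to 0.372 at 24 h, 0.485 at 36 h and 0.537 at 48 h on the log2 scale, and the share of called genes that were higher went from 55.4% to 80.4%, from 57.5% to 94.1% and from 52.7% to 93.7%. Between 24 h and 36 h it went from 45.1% to 68.1%, and between 36 h and 48 h from 53.1% to 74.2%. Members whose sign depends on this choice are named below. The 4 hepatocyte markers Alb, Apoa1, Ttr and Hnf4a summed to 104900 to 109600 CPM at 0 h and to 64790 to 88010 CPM in the injured sections, so the tissue label holds in every section. The 6 markers of recruited macrophages, all past the filter on low counts, summed to 260.5 to 293.4 CPM at 0 h and 401.6 to 1677 CPM in the injured sections, and 5, 5 and 6 of them were called higher at the 3 times. In sections of whole tissue, fewer cells of a type and less RNA per cell cannot be told apart.

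At 24 h, 7 of the 10 members differed from 0 h at an adjusted p under 0.05 (edgeR quasi-likelihood test with Benjamini-Hochberg adjustment over all genes), 4 higher and 3 lower, where 41.7% of all genes tested were called (23.1% higher and 18.6% lower). At 36 h, 5 members were called, 4 higher and 1 lower, against 29.2% of all genes (16.8% and 12.4%). At 48 h, 7 members were called, 4 higher and 3 lower, against 44.2% of all genes (23.3% and 20.9%). Without 0 h replicate 3 it was 4 members and 4926 of all genes, instead of 6552. Between 24 h and 36 h, 7 members differed, 4 higher and 3 lower at 36 h, where 15.6% of all genes did (7.04% and 8.58%). That count was not stable. It was 1 member without 24 h A, 3 without 24 h B or 36 h B, 1 with the section letter as a block and 0 in a fit of those 2 groups alone, where 450, 903, 1338, 82 and 1 of all genes were called instead of 2315. The members not called between 24 h and 36 h were Trf (-0.19 ± 0.17), Slc40a1 (0.07 ± 0.18) and Tfrc (-0.09 ± 0.40, or 0.02 on total counts). Between 36 h and 48 h no member was called by edgeR and none by DESeq2, where 3.05% of all genes were called (1.62% higher and 1.43% lower), and 3 members had an unadjusted p under 0.05: Hamp2 (-1.45 ± 0.58), Bmp6 (-0.55 ± 0.19) and Ftl1 (0.37 ± 0.14). The others were Hamp at -0.85 ± 0.39, Fth1 at -0.38 ± 0.18, Id1 at 0.21 ± 0.16, Slc40a1 at 0.24 ± 0.16, Tfrc at 0.26 ± 0.35, Trf at 0.04 ± 0.15 and Cp at -0.09 ± 0.16, the last of which turned on total counts (0.0036). Leaving out 1 section, this comparison called 45 of all genes without 48 h B, 51 without 48 h C and 1130 without 36 h B, instead of 452. The median log2 change of the 10 members against 0 h was 0.25, 0.42 and 0.46 at the 3 times, beside 0.05, 0.05 and 0.01 over all genes tested. Id1, Cp and Fth1 were higher than at 0 h at all 3 times, and Tfrc was called at none. The comparisons against 0 h share the same 3 uninjured sections. In the fits that leave out a section of a group of 2, the lone section left is assumed to vary like the other groups.

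**Figure D1:**
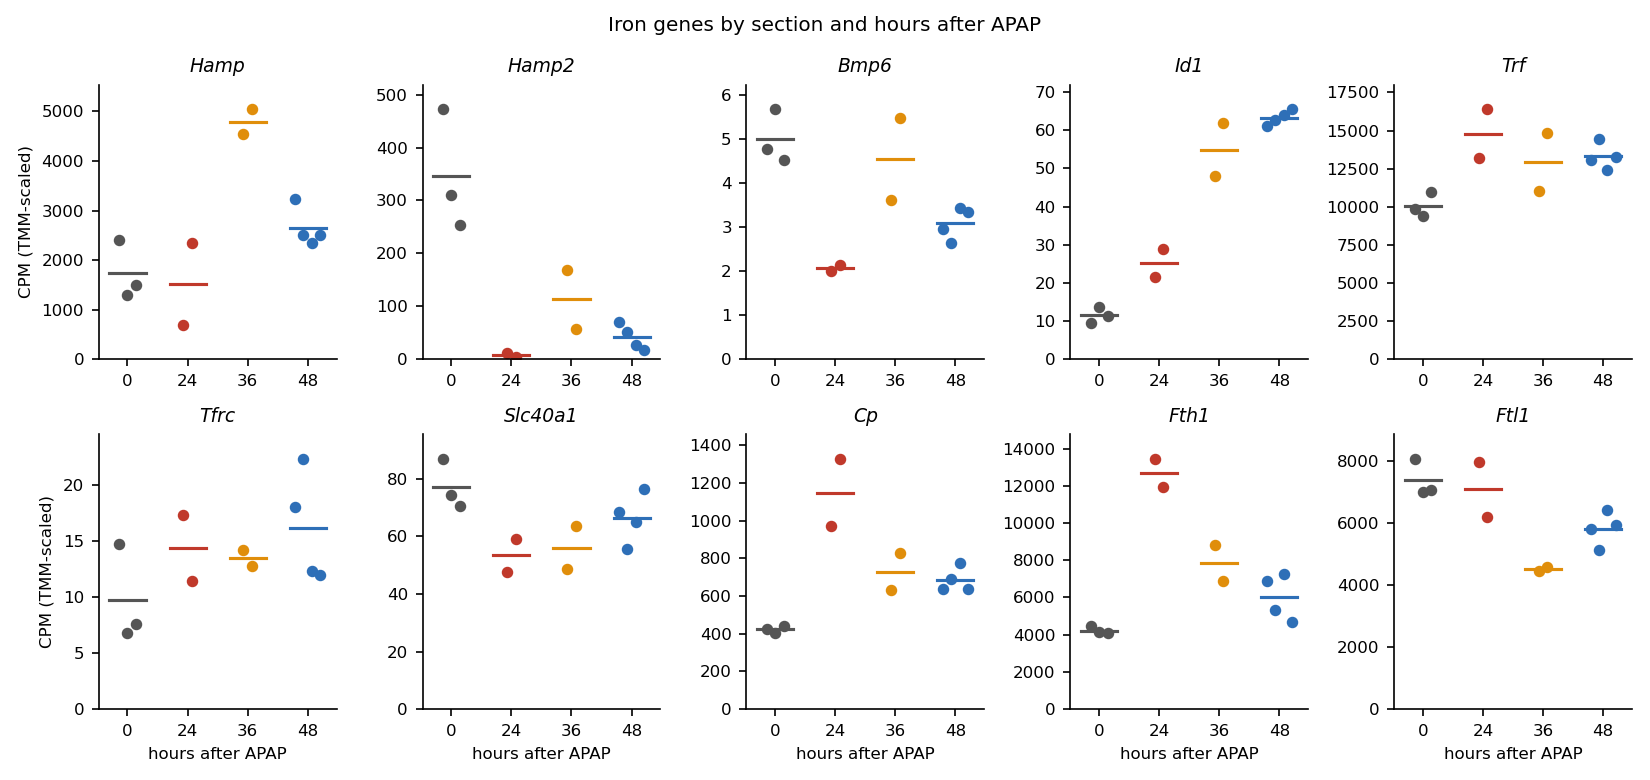
Level of each of the 10 iron genes in every section, as TMM-scaled CPM on linear axes that start at 0, by hours after APAP. Points are sections (3, 2, 2 and 4) and lines are means. Hamp2 sat between 253 and 471.9 CPM at 0 h and at or below 169.5 CPM in all 8 injured sections, while Id1 was above its 0 h sections in each of them.

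Hamp, the hepcidin gene proper, was highest at 36 h. Its level was 2406, 1304 and 1503 CPM in the 0 h sections, 684.5 and 2341 at 24 h, 4545 and 5039 at 36 h, and 3233, 2512, 2346 and 2507 at 48 h. Both 36 h sections lay above every other section, whereas the 24 h sections lay on either side of 0 h replicates 3 and 4 and stood further apart than those of any other time. At 36 h Hamp was 2.76 times its 0 h level (log2 1.46 ± 0.42 SE, edgeR adjusted p = 0.0258), and 3.17 times its 24 h level (log2 1.66 ± 0.47, adjusted p = 0.0414). The first of these calls was lost on leaving out 0 h replicate 3 or 4 or either 36 h section, with adjusted p between 0.0786 and 0.12. The second was lost on leaving out any of 9 sections in turn (all but 0 h replicate 2 and 24 h B), and its value was 1.03 (adjusted p = 0.116) without 24 h A and 2.81, still called, without 24 h B. At 24 h the change from 0 h was -0.20 ± 0.42 (adjusted p = 0.737), and it rested on single sections: it was 0.08 without 0 h replicate 2, 0.43 without 24 h A and -1.35, with an adjusted p of 0.0158, without 24 h B, and it was 0.12 on total counts. At 48 h Hamp stood at 0.61 ± 0.36 (adjusted p = 0.192). That difference was called on total counts (1.14, adjusted p = 0.0168), without either 24 h section (0.0378 and 0.0376) and in a fit of the 0 h and 48 h sections alone (0.0374).

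Hamp2, the neighbouring copy, was lower after injury than before. It had 471.9, 311 and 253 CPM at 0 h, 10.97 and 4.498 at 24 h, 169.5 and 56.38 at 36 h, and 70.65, 50.98, 26.31 and 17.97 at 48 h. All 8 injured sections were below all 3 uninjured ones, and both 24 h sections were below every other section. At 24 h Hamp2 was 44.3 times lower than at 0 h (log2 -5.47 ± 0.83, edgeR adjusted p = 0.000806, from -6.26 without 24 h A to -4.98 without 24 h B, both called), and at 48 h 8.33 times lower (log2 -3.06 ± 0.55, adjusted p = 0.00176). At 36 h the change was -1.61 ± 0.67 with an adjusted p of 0.0981, and it ranged from -2.62 without 36 h A to -1.03 without 36 h B. From 24 h to 36 h Hamp2 rose by 3.86 ± 0.79 on the log2 scale (adjusted p = 0.0148), a call lost without 24 h A (4.65, adjusted p = 0.061) or 24 h B (3.36, 0.0824). The Hamp2 log2 fold change, 36 h against 24 h, was 2.85 without 36 h A and 4.48 without 36 h B, and both were called.

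The share of Hamp2 in the sum of Hamp and Hamp2 UMIs does not depend on scaling between libraries. It was 16.4%, 19.25% and 14.41% in the 0 h sections. It was 1.577% and 0.1917% at 24 h, 3.596% and 1.106% at 36 h, and 2.138%, 1.989%, 1.109% and 0.7116% at 48 h. All 8 injured shares were below all 3 uninjured ones, and the exact 95% binomial interval of the lowest, in 24 h B, was 0.1614% to 0.2261%. The mean fell from 16.7% ± 2.44 (SD, n = 3) to 1.55% ± 1.05 (SD, n = 8), a difference of -15.1 percentage points (two-sided exact permutation test over sections, p = 0.00606, the smallest that 165 arrangements can give). The longest annotated transcripts of the pair were 88.8% identical, with 437 alignment columns and a longest shared run of 87 bases, so how the authors' counting split reads between the copies is uncertain, and this touches every Hamp and Hamp2 value. The rarest of these counts was 141 Hamp2 UMIs, in 24 h B.

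**Figure D2:**
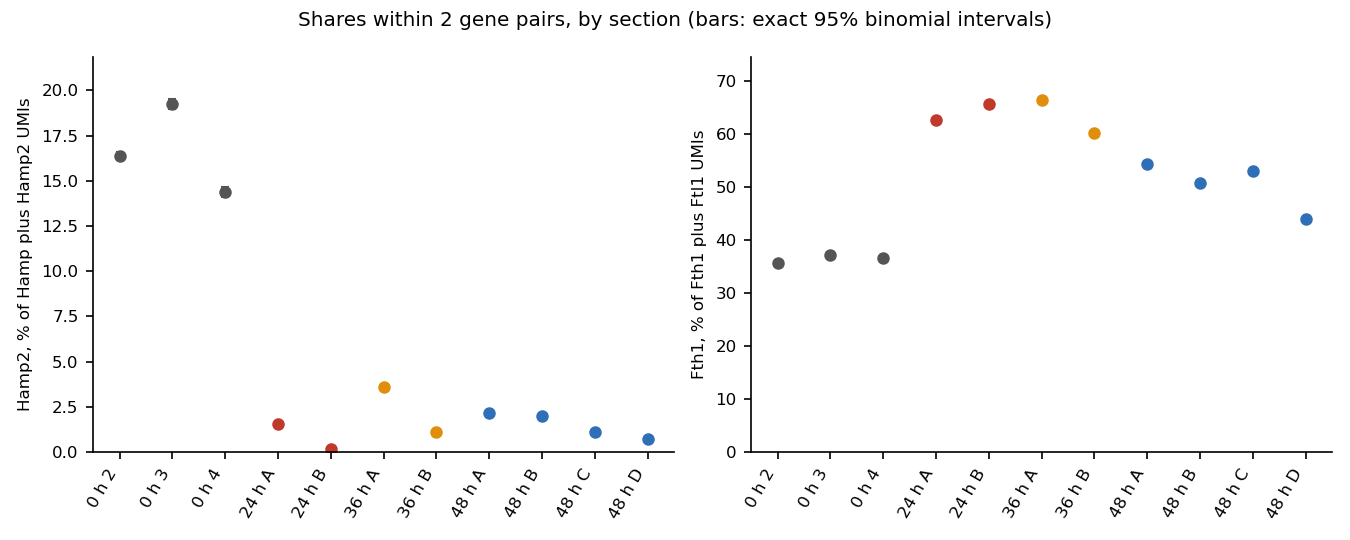
Share of Hamp2 in the Hamp plus Hamp2 UMIs (left) and of Fth1 in the Fth1 plus Ftl1 UMIs (right), in percent, for each of the 11 sections. Bars are exact 95% binomial intervals, which cover counting error only and are mostly narrower than the points. Uninjured sections had 14.41% to 19.25% Hamp2 and 35.65% to 37.18% Fth1, and the injured ones at most 3.596% Hamp2 and at least 44% Fth1.

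Of the BMP pathway genes, the ligand Bmp6 was lower at 24 h and 48 h, and the BMP target Id1 rose at every time. Bmp6 was a sparse transcript, at 4.776, 5.668 and 4.519 CPM at 0 h (160 to 308 UMIs per section), 2 and 2.137 at 24 h (93 and 67 UMIs), 3.621 and 5.478 at 36 h, and 2.953, 2.637, 3.443 and 3.351 at 48 h. Both 24 h sections were the lowest of all, the 48 h sections lay between these and the 0 h ones, and 36 h B lay within the 0 h range. The 6 markers of sinusoidal endothelium summed to 284.5 to 324.5 CPM at 0 h and 214.4 to 227.4 at 24 h. They summed to 212.3 to 303.5 at 36 h and 226 to 285 at 48 h. The part of these cells in the changes of Bmp6, or of Bmp2 given further below, was not tested. Bmp6 changed by -1.27 ± 0.22 (log2) at 24 h (edgeR adjusted p = 0.00116). At 48 h it changed by -0.69 ± 0.17 (adjusted p = 0.00776), which was not called on total counts (-0.16, adjusted p = 0.419). At 36 h it differed from 0 h by -0.13 ± 0.21 (adjusted p = 0.654), or 0.30 on total counts. The rise of 1.14 ± 0.24 from 24 h to 36 h (adjusted p = 0.0134) was not called without 24 h A, 24 h B or 36 h B, with adjusted p of 0.0839, 0.0517 and 0.0588.

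Id1 encodes an inhibitor of DNA binding that many BMP-responsive cells induce. Its level was 9.508, 13.69 and 11.32 CPM at 0 h, 21.53 and 28.87 at 24 h, 47.91 and 61.8 at 36 h, and 61.11, 62.57, 64.03 and 65.45 at 48 h. Sections of 0 h, 24 h and the later times did not overlap, and those of 36 h and 48 h did. Against 0 h Id1 was 2.19 times higher at 24 h (log2 1.13 ± 0.17, edgeR adjusted p = 0.000565), 4.76 times at 36 h (2.25 ± 0.17, adjusted p = 6.54e-05) and 5.49 times at 48 h (2.46 ± 0.16, adjusted p = 1.02e-05), and each call held in all 11 fits that leave out a section. The rise from 24 h to 36 h was 1.124 ± 0.19 (adjusted p = 0.00683, and 0.0546 without 24 h A).

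**Figure D3:**
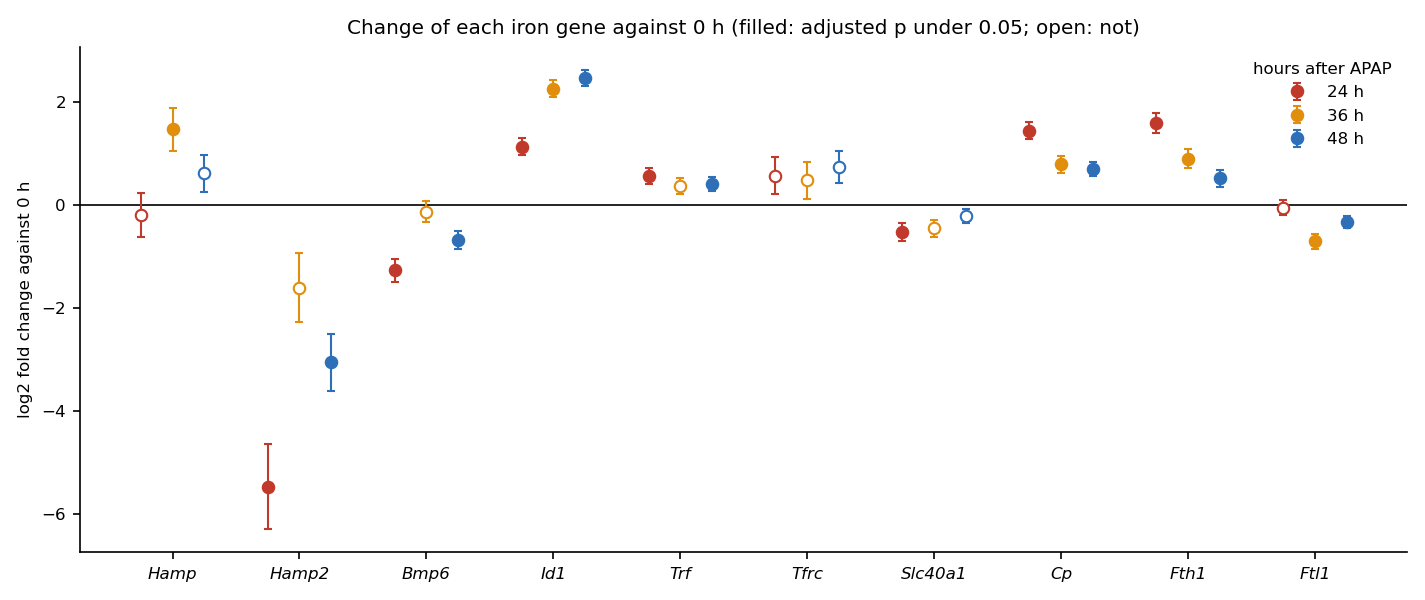
Log2 fold change of each iron gene against 0 h at 24 h, 36 h and 48 h. Bars are standard errors from the edgeR fit over all 11 sections, filled points have an adjusted p under 0.05 and open points do not. Hamp2 reached -5.47 at 24 h, whereas Id1 was highest at 48 h (2.46), and Hamp was called at 36 h only.

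In the plasma transport and uptake pair, the abundant carrier Trf rose modestly, and the rare receptor Tfrc did not pass the test at any time. Trf was at 9865, 9398 and 10950 CPM at 0 h, 13170 and 16380 at 24 h, 11020 and 14870 at 36 h, and 13060, 14470, 12430 and 13290 at 48 h. All injured sections were above all uninjured ones, though 36 h A was above 0 h replicate 4 by a small margin. Trf was 1.47 times higher at 24 h (log2 0.55 ± 0.15, edgeR adjusted p = 0.014) and 1.32 times at 48 h (0.40 ± 0.13, adjusted p = 0.0276), and at 36 h the change of 0.36 ± 0.15 was not called (adjusted p = 0.0967). The 24 h call was lost without 0 h replicate 2, 0 h replicate 3 or 24 h B (adjusted p = 0.0538, 0.0643 and 0.146) and the 48 h call without 0 h replicate 2, 0 h replicate 3 or 48 h B (0.0826, 0.105 and 0.0707). The 36 h difference was called without 36 h A (0.56, adjusted p = 0.0187), on total counts (0.80, 0.00111) and in hepatocyte-rich spots alone (0.54, 0.0386).

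Tfrc was at 14.77, 6.827 and 7.597 CPM at 0 h, 17.29 and 11.42 at 24 h, 14.22 and 12.75 at 36 h, and 18.04, 22.3, 12.36 and 11.93 at 48 h. A single uninjured section, 0 h replicate 2, lay among the injured ones, and the other two were below all 8. The changes against 0 h were 0.56 ± 0.36, 0.47 ± 0.36 and 0.73 ± 0.31 on the log2 scale (edgeR adjusted p = 0.237, 0.352 and 0.0792). Without 0 h replicate 2 they were called at 24 h (0.96, adjusted p = 0.0371) and at 48 h (1.16, adjusted p = 0.0109). At 48 h the difference was also called on total counts (1.26, adjusted p = 0.00542) and by DESeq2 (0.73, adjusted p = 0.0366).

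Of the export pair, the transcript of the exporter itself was lower at 24 h and that of its partner oxidase higher throughout. Slc40a1 was at 86.76, 74.2 and 70.4 CPM at 0 h, 47.7 and 59.18 at 24 h, 48.75 and 63.48 at 36 h, and 68.54, 55.69, 64.99 and 76.42 at 48 h. Sections at 24 h and 36 h were all below the uninjured ones, while a 48 h section, D, lay within their range. The log2 change of Slc40a1 at 24 h was -0.53 ± 0.17 (edgeR adjusted p = 0.0279). That call was lost without 0 h replicate 2 (-0.47, adjusted p = 0.0755), without 24 h A (-0.38, 0.205), in hepatocyte-rich spots alone (-0.37, 0.0951) and on total counts (-0.21, 0.306). The differences at 36 h (-0.46 ± 0.17, adjusted p = 0.0635) and 48 h (-0.22 ± 0.14, adjusted p = 0.232) were not called, and the latter was 0.31 on total counts. At 36 h it was called without 36 h B (-0.66, adjusted p = 0.0495) and by DESeq2 (-0.48, 0.0352).

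Cp, the plasma ferroxidase made by hepatocytes, was at 423.5, 404.2 and 442.8 CPM at 0 h, 969.9 and 1326 at 24 h, 632.3 and 826.7 at 36 h, and 635.7, 691.2, 774.9 and 636.4 at 48 h. No injured section overlapped the uninjured range, and both 24 h sections were above all others. Cp was 2.71 times its 0 h level at 24 h (log2 1.44 ± 0.16, edgeR adjusted p = 0.000111), 1.72 times at 36 h (0.78 ± 0.16, adjusted p = 0.00604) and 1.62 times at 48 h (0.69 ± 0.14, adjusted p = 0.00253). Without 36 h B the 36 h change was 0.58 with an adjusted p of 0.0514. The change from 24 h to 36 h, -0.65 ± 0.18 (adjusted p = 0.0353), lost its call without any 1 of 6 sections (each 0 h section, 24 h B, 36 h A and 48 h B), and it was smallest without 24 h B (-0.41, adjusted p = 0.204).

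The ferritin chains parted. Fth1, the heavy chain with the ferroxidase site, was at 4459, 4132 and 4075 CPM at 0 h, 13420 and 11930 at 24 h, 8811 and 6899 at 36 h, and 6893, 5300, 7241 and 4665 at 48 h. Every injured section was above every uninjured one, and the 24 h sections were the highest. Fth1 was 3.0 times higher at 24 h (log2 1.59 ± 0.19, edgeR adjusted p = 0.000146), 1.86 times at 36 h (0.90 ± 0.19, adjusted p = 0.0066) and 1.43 times at 48 h (0.51 ± 0.16, adjusted p = 0.0249). The 48 h call was lost without any 1 of the 0 h sections or without 48 h A or C (adjusted p from 0.0561 to 0.0851), and in hepatocyte-rich spots alone the 48 h change was 0.20 (adjusted p = 0.298). The change from 24 h to 36 h, -0.69 ± 0.21 (adjusted p = 0.0486), lost its call without any 1 of 8 sections (all but 36 h A, 48 h C and 48 h D), with adjusted p from 0.0525 to 0.223.

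Ftl1, the light chain, was at 8048, 6981 and 7067 CPM at 0 h, 7974 and 6205 at 24 h, 4441 and 4562 at 36 h, and 5795, 5128, 6402 and 5936 at 48 h. Of its 24 h sections A lay within the uninjured range and B below it, both 36 h sections were below all others, and the 48 h sections lay between those of 36 h and 0 h. The log2 change of Ftl1 at 36 h was -0.71 ± 0.14 (edgeR adjusted p = 0.00559), and on total counts -0.27 (adjusted p = 0.145). At 48 h it was -0.34 ± 0.12 (adjusted p = 0.0364), turned to 0.19 (adjusted p = 0.2) on total counts, and lost its call without any 1 of 6 sections (each 0 h section and 48 h A, B and D, adjusted p from 0.0589 to 0.143). At 24 h it was -0.06 ± 0.14 (adjusted p = 0.784), or 0.27 on total counts. From 24 h to 36 h it changed by -0.66 ± 0.16 (adjusted p = 0.0217), a call lost without 24 h A (-0.47, adjusted p = 0.139) or 36 h B (-0.63, 0.0621).

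Within a section, the share of Fth1 in the ferritin UMIs was 35.65%, 37.18% and 36.57% at 0 h. It was 62.72% and 65.8% at 24 h, 66.49% and 60.2% at 36 h, and 54.33%, 50.82%, 53.07% and 44% at 48 h. All 3 uninjured sections were close to each other and lay below all 8 injured ones, and the 48 h sections lay between them and those of 24 h and 36 h. The mean went from 36.5% ± 0.769 (SD, n = 3) to 57.2% ± 7.93 (SD, n = 8), a difference of 20.7 percentage points (two-sided exact permutation test, p = 0.00606, the smallest that 165 arrangements can give).

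The lobule was read out at 0 h, where the tissue is intact, by sorting spots on a score of 23 central minus 11 portal genes that held no iron gene, and splitting them into 5 equal classes. These genes came from the study's own mouse zonation lists, which were derived from its spatial transcriptomes. The lobule axis may therefore not be independent of these sections. Between the most pericentral and most periportal 20% of spots, 7 members were called, 2 higher and 5 lower pericentrally, where 23.5% of all genes tested were (11.3% higher and 12.2% lower, edgeR with the section as a block). The share of calls that were higher was 48.0%, and 66.9% on total counts. Both hepcidin genes were higher on the pericentral side, Hamp by 0.31 ± 0.03 on the log2 scale (adjusted p = 3.63e-10) and Hamp2 by 0.42 ± 0.04 (adjusted p = 1.97e-10). Neither peaked there. Both were highest in the class next to the most central one in each of the 3 sections, at 1.15 to 1.17 times the section's mean of the 5 classes for Hamp and 1.15 to 1.20 times for Hamp2, and lowest in the most portal class.

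The 5 members higher on the periportal side were Tfrc, Trf, Id1, Slc40a1 and Cp. Tfrc differed most, at 17.64, 6.263 and 7.661 CPM in periportal and 6.559, 4.622 and 4.755 in pericentral spots of replicates 2, 3 and 4 (log2 -0.95 ± 0.15, adjusted p = 5.49e-05), and it was lower in pericentral spots in all 3 sections. Trf fell from 8765, 8354 and 9679 CPM periportally to 6471, 6276 and 6970 pericentrally (-0.44 ± 0.02, adjusted p = 7.22e-15). Slc40a1 (-0.35 ± 0.05, adjusted p = 4.18e-06) and Cp (-0.30 ± 0.03, adjusted p = 5.28e-09) were lower in pericentral spots in 3 of 3 sections. All 6 Kupffer cell markers were lower in the same spots (median log2 -0.46), and their part in the result for Slc40a1, which Kupffer cells also express, was not tested. Id1 (-0.45 ± 0.13, adjusted p = 0.00809) was level in replicate 4 (9.331 CPM periportally and 9.316 pericentrally), and without replicate 2 it was not called (-0.29, adjusted p = 0.117). Fth1 (-0.06 ± 0.02, adjusted p = 0.0561, or 0.01 on total counts), Ftl1 (0.04 ± 0.02, adjusted p = 0.276, but 0.11 with an adjusted p of 0.000537 on total counts) and Bmp6 (0.26 ± 0.18, adjusted p = 0.362) were not called.

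**Figure D4:**
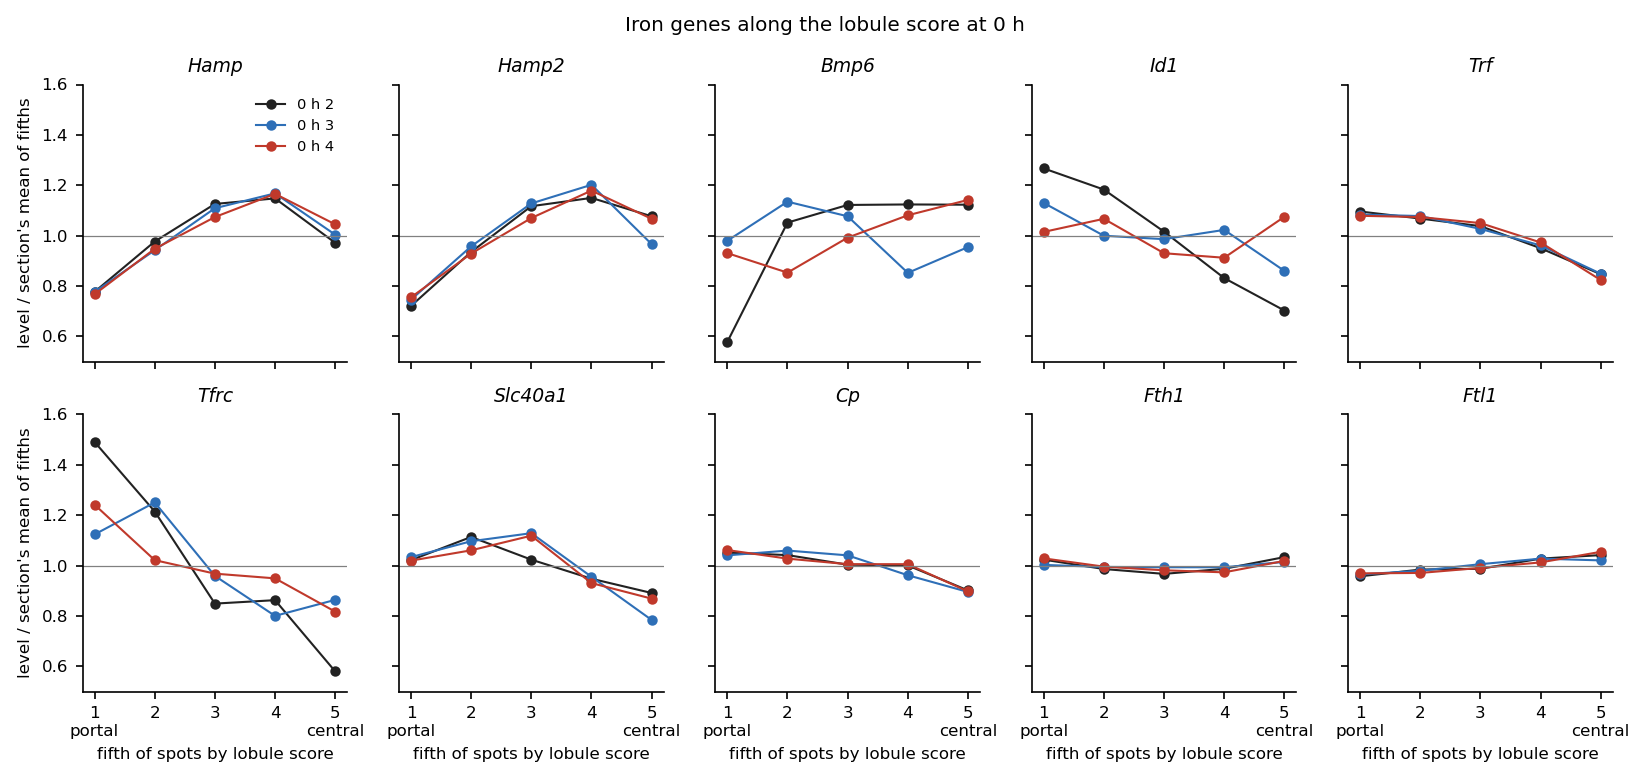
Level of each iron gene at 0 h in 5 equal classes of spots ordered by the lobule score from portal (1) to central (5), divided by the section's own mean over the classes. Each line is a section (replicates 2, 3 and 4). Hamp and Hamp2 peaked in class 4 in all 3 sections, whereas Trf fell from class 1 to class 5 in each.

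Where in the injured tissue the iron transcripts lay was compared between the 10% of spots poorest and the 50% of spots richest in transcripts of 8 hepatocyte genes outside the iron genes, in each section. These classes describe transcripts and do not measure necrosis. At 0 h no member was called by edgeR, where 2.73% of all genes were (0.851% higher and 1.88% lower), and 2 members, Hamp2 (-0.21 ± 0.09) and Trf (-0.21 ± 0.09), had an unadjusted p under 0.05. Without any 1 of the 0 h sections, 60 to 93 of all genes were called there instead of 378, and 641 without 36 h A or 637 without 48 h C, the last with 1 member. Of the other members Hamp was at -0.21 ± 0.15, Cp at -0.14 ± 0.08, Slc40a1 at 0.07 ± 0.09, Id1 at 0.09 ± 0.19 and Bmp6 at 0.46 ± 0.25, while Tfrc (-0.07 ± 0.18), Fth1 (-0.09 ± 0.08) and Ftl1 (-0.06 ± 0.08) turned on total counts (0.02, 0.02 and 0.04). The hepatocyte-poor spots of 0 h were shallow, with section medians of 5884 to 17057 UMIs beside 22193 to 35208 in hepatocyte-rich ones. DESeq2 was not run on these spot classes.

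After injury the transcripts of Fth1, Ftl1 and Id1 were higher in hepatocyte-poor spots at all 3 times and those of Trf and Cp lower, whereas Hamp and Hamp2 were called lower at 36 h and 48 h but not at 24 h. At 24 h, 3 members were called higher and 3 lower, against 29.8% of all genes (12.8% and 17.1%). At 36 h, 3 were higher and 4 lower, against 35.2% (16.8% and 18.3%), and at 48 h, 4 were higher and 5 lower, against 68.0% (35.7% and 32.4%). In the 24 h sections A and B, Fth1 was at 20200 and 16400 CPM in hepatocyte-poor and 10610 and 9152 CPM in hepatocyte-rich spots. The ratio of the classes was 1.904 and 1.792 there, 1.392 to 1.875 times at 36 h and 1.611 to 1.755 times at 48 h. At 0 h the same ratio was 0.9138 to 0.9636. The log2 differences were 0.89 ± 0.10, 0.69 ± 0.10 and 0.73 ± 0.07 (adjusted p = 2.42e-08, 1.14e-06 and 5.92e-11). Ftl1 followed with 0.75 ± 0.10, 0.74 ± 0.10 and 0.84 ± 0.07 (adjusted p = 6.07e-07, 5.69e-07 and 4.17e-12), higher in the hepatocyte-poor spots of all 8 injured sections. Id1 differed by 0.95 ± 0.15, 0.54 ± 0.13 and 0.74 ± 0.08 (adjusted p = 2.77e-05, 0.0019 and 1.78e-08), also in 8 of 8, and the 36 h call was lost without 36 h B (0.45, adjusted p = 0.122).

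Trf and Cp were lower in the hepatocyte-poor spots of all 8 injured sections. The log2 difference of Trf was -0.94 ± 0.11 at 24 h, -0.84 ± 0.11 at 36 h and -1.13 ± 0.08 at 48 h (adjusted p = 3.66e-08, 1.39e-07 and 1.31e-14). That of Cp was -1.01 ± 0.10, -0.78 ± 0.10 and -1.26 ± 0.07 (adjusted p = 1.52e-09, 9.57e-08 and 4.75e-17). At 48 h Cp was at 351.6 to 396.3 CPM in hepatocyte-poor and 789.9 to 1057 CPM in hepatocyte-rich spots.

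Hamp and Hamp2 were higher in hepatocyte-rich spots at the later times. The choice of spots by hepatocyte transcripts bears on these genes as well, and a difference beyond that of the hepatocyte markers was not tested. Hamp differed by -0.94 ± 0.18 at 36 h and -0.90 ± 0.13 at 48 h (adjusted p = 0.00133 and 3.97e-05). Its 36 h level was 5548 and 6523 CPM in hepatocyte-rich and 3177 and 3097 in hepatocyte-poor spots, so the peak seen over whole sections was present in both classes. At 24 h the Hamp sections went apart, with a ratio of 1.044 in A and 0.5141 in B (-0.45 ± 0.18, adjusted p = 0.086). Without 24 h A the difference was -0.97 (adjusted p = 4.55e-06), without 24 h B 0.05, and with no filter on low counts -0.47 (adjusted p = 5.56e-06). Hamp2 differed by -1.04 ± 0.13 at 36 h and -1.56 ± 0.10 at 48 h (adjusted p = 3.91e-07 and 2.73e-13). At 24 h its difference was -0.04 ± 0.24 (adjusted p = 0.932), on 44 and 26 UMIs in the hepatocyte-poor spots of A and B, and it was 1.03 (adjusted p = 0.0307) without 24 h A and 0.33 on total counts.

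Slc40a1 turned between the times. It was lower in hepatocyte-poor spots at 24 h (40.35 and 48.23 against 54.96 and 68.68 CPM, log2 -0.48 ± 0.12, adjusted p = 0.00301, but -0.09 with an adjusted p of 0.6 on total counts and 0.0714 without 24 h B) and higher in those of 3 of 4 sections at 48 h (0.25 ± 0.07, adjusted p = 0.00307). At 36 h it was -0.14 ± 0.12 (adjusted p = 0.396), -0.44 (adjusted p = 0.0458) without 36 h B and 0.28 (adjusted p = 0.0484) on total counts. Tested directly, its difference changed by 0.73 ± 0.14 between 24 h and 48 h (adjusted p = 0.00024), in a comparison that called 1 member higher and 2 lower beside 23.7% of all genes (10.6% and 13.1%), and this was 0.89 on total counts. The other 2 called were Hamp2 (-1.52 ± 0.28, adjusted p = 0.000168, and -2.60 without 24 h A) and Tfrc (-0.63 ± 0.19, adjusted p = 0.0157, not called on total counts). Without 24 h A this test called 2 members and 1411 of all genes instead of 3281. The members not called were Hamp (-0.45 ± 0.22), Bmp6 (0.76 ± 0.48), Id1 (-0.21 ± 0.17), Trf (-0.19 ± 0.13), Cp (-0.25 ± 0.12), Ftl1 (0.09 ± 0.12) and Fth1 (-0.15 ± 0.12, or 0.01 on total counts). Over the same contrast all 6 Kupffer cell markers changed upwards, by a median of 0.94, and so did 5 of 6 recruited macrophage markers, by 1.14. Their part in the result was not tested.

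The log2 difference of Tfrc at 48 h was -0.24 ± 0.10 (adjusted p = 0.0297), but it turned on total counts, to 0.31 (adjusted p = 0.00408), and the call was lost without 36 h A, 48 h A, 48 h B or 48 h C (adjusted p from 0.0561 to 0.209). At 24 h and 36 h Tfrc differed by 0.39 ± 0.17 and -0.09 ± 0.17 (adjusted p = 0.0761 and 0.72), or 0.77 (adjusted p = 0.000307) and 0.32 on total counts, and the 24 h difference was called without 24 h B (0.57, adjusted p = 0.0468). Bmp6 was not called at any time (-0.57 ± 0.45, -0.67 ± 0.33 and 0.20 ± 0.19, adjusted p = 0.373, 0.115 and 0.369). At 36 h it rested on 5 and 24 UMIs in the hepatocyte-poor spots of the 2 sections, with -2.02 (adjusted p = 0.00804) without 36 h B, and at 48 h it was 0.74 (adjusted p = 0.000624) on total counts. Total-count scaling moved the median of all genes in these contrasts to 0.343, 0.422 and 0.587 at 24 h, 36 h and 48 h, and the share of calls that were higher in hepatocyte-poor spots from 42.8% to 87.2%, from 47.9% to 86.3% and from 52.4% to 83.2%. At 0 h this share went from 31.2% to 80.0%, and for the change between 24 h and 48 h from 44.9% to 67.4%.

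**Figure D5:**
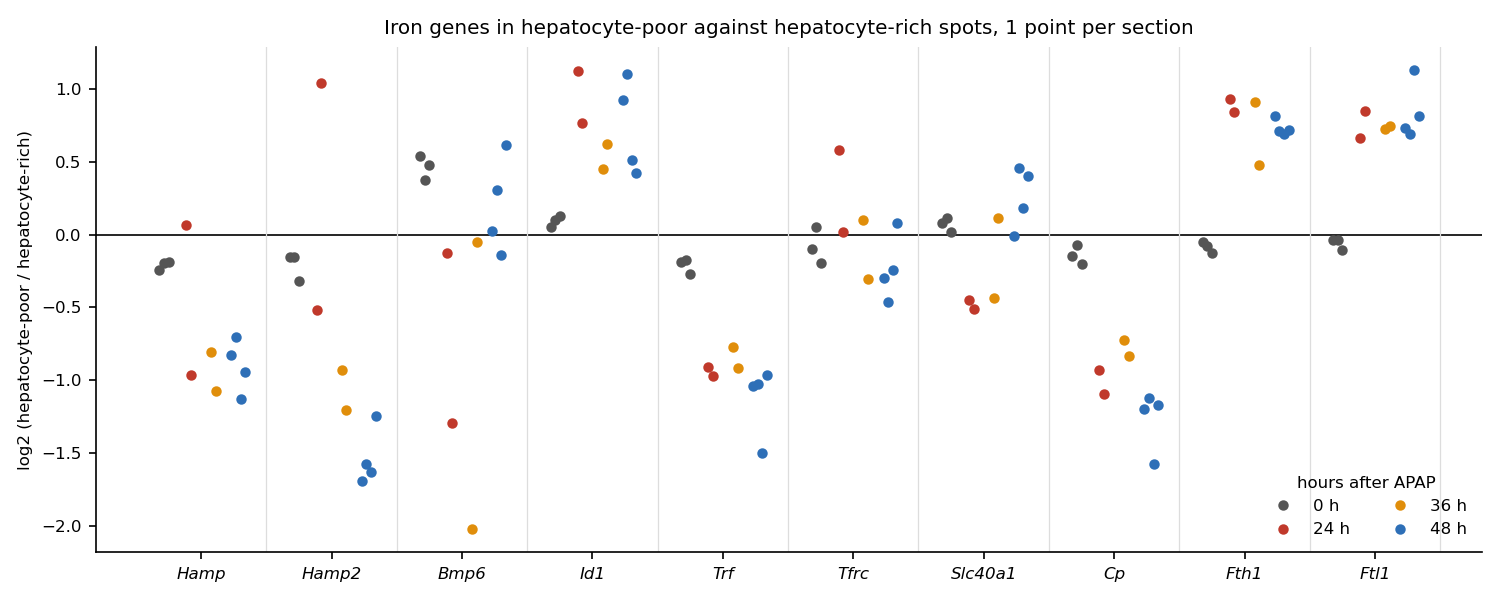
Log2 ratio of the level in hepatocyte-poor to that in hepatocyte-rich spots for each iron gene, with a point for each of the 11 sections, coloured by hours after APAP. Ratios above 0 are higher in hepatocyte-poor spots. Fth1, Ftl1 and Id1 lay above 0 and Trf and Cp below 0 in all 8 injured sections, and Slc40a1 went from below 0 in both 24 h sections to above 0 in 3 of 4 at 48 h.

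Markers of several cell types other than hepatocytes were higher in the same contrasts, as the storage genes were. In hepatocyte-poor spots, 5, 5 and 6 of the 6 recruited macrophage markers were higher at 24 h, 36 h and 48 h (median log2 1.44, 2.13 and 2.57), as were 3 of the 3 neutrophil markers tested at each time. Kupffer cell markers were higher for 2, 4 and 6 of 6. Stellate cell and myofibroblast markers were higher for 2, 3 and 5 of 6, and cycling cell markers for 0, 3 and 4 of 4. At each time 4 of 5 erythroid markers were higher and 1 lower, and 3 of 6 sinusoidal endothelial markers higher and 1 lower. Spots chosen for few hepatocyte transcripts hold a larger share of other transcripts by that choice. Spots were also sorted by marker UMIs. In the 10% of spots with the most recruited macrophage UMIs, Fth1 was 1.11 to 1.25 times its level in the rest at 24 h, 1.40 to 1.52 times at 36 h and 1.83 to 2.02 times at 48 h, and Ftl1 1.20 to 1.36, 1.597 to 1.656 and 1.98 to 2.50 times. Among the injured groups these ratios were lowest at 24 h for both genes. At 0 h the ratios of both genes in these spots lay between 0.9975 and 1.022. Slc40a1 was higher in the spots richest in Kupffer cell UMIs in all 11 sections, by 1.23 to 1.58 times at 0 h and 1.54 to 1.87 times at 48 h, whereas for Hamp this ratio stayed between 0.87 and 1.03. These are descriptions, with no test, and the part of these cells in the changes of whole sections was not tested.

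The spread between spots changed as well. Each spot was thinned to 5000 UMIs, leaving out shallower spots (7 to 259 per section at 0 h, 1 to 118 in the injured sections). The variance of Fth1 over spots was 1.195 to 1.20 times its mean at 0 h, close to counting noise, and 6.115 to 27.11 times in the injured sections. Its Moran's I, which is 0 with no spatial order and near 1 where neighbouring spots match, went from 0.0793 to 0.0987 at 0 h to 0.337 to 0.445 after injury. Ftl1 did likewise, from 1.246 to 1.259 to 5.023 to 13.88 times its mean. Trf was ordered in space already at 0 h (Moran's I 0.340 to 0.421).

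Among the sparse members, Hamp2 had a UMI in 60.4% to 80.6% of thinned spots at 0 h, 2.29% to 5.05% at 24 h, 23.3% to 53.3% at 36 h and 9.74% to 31.1% at 48 h. Id1 went from 3.94% to 5.69% of spots at 0 h to 27.6% to 30.1% at 48 h. Tfrc was seen in at most 12.7% of spots in any section and Bmp6 in at most 2.4%. The Moran's I of both lay between -0.0235 and 0.0325. It was not tested, and few UMIs per spot limit it. Over summed spots Tfrc did differ across the lobule at 0 h (log2 -0.95 ± 0.15). Hamp UMIs were found in 93.9% to 100% of spots in every section. Free transcripts that spread on the array would also give such UMIs and their share was not measured, so no share is read as a share of expressing cells.

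The wider iron pathway was described with a list of 63 genes, which holds 8 of the members. Of the 55 others, 15 were higher and 16 lower at 24 h, 9 and 12 at 36 h and 10 and 13 at 48 h by the same edgeR test, where 23.1% and 18.6% of all genes were at 24 h, 16.8% and 12.4% at 36 h and 23.3% and 20.9% at 48 h. These shares also stand beside each role counted below. The 55 genes had a median log2 change of 0.03, -0.03 and -0.02 beside 0.05, 0.05 and 0.01 over all genes. On total counts, a check of this list added after the data were seen, 25 of the 55 genes were higher and 8 lower at 24 h, 23 and 2 at 36 h and 35 and 1 at 48 h, with a median log2 change of 0.35, 0.39 and 0.50. The split between rises and falls in this list therefore depended on the scaling. The scavenger role held Hp, Hpx, Cd163, Lrp1, Lcn2 and Ltf, proteins that bind or take up haemoglobin, haem, siderophores or iron, some as complexes. Its transcripts had the largest median of the 7 roles at each time (1.49, 0.42 and 0.57), with 3, 3 and 2 of 6 higher and none lower. Lcn2, which traps bacterial siderophores, was 7.81 ± 0.997 higher on the log2 scale at 24 h (adjusted p = 0.000324), and Hp, haptoglobin, rose from a mean of 2787 CPM at 0 h to 18110 CPM at 24 h (2.70 ± 0.24, adjusted p = 4.07e-05).

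Changes are on the log2 scale. The role of hepcidin regulation held 26 genes, with members and BMP targets such as Id1 included. Of these, 6 rose and 7 fell at 24 h, 4 and 5 changed at 36 h and 5 and 5 at 48 h. Beside them stand 23.1% and 18.6%, 16.8% and 12.4%, and 23.3% and 20.9% of all genes. Socs3, a feedback inhibitor induced by STAT3, was 3.14 ± 0.38 higher at 24 h (adjusted p = 0.000187) and 1.54 ± 0.33 at 48 h (adjusted p = 0.00396). Fgl1, a hepatocyte-secreted protein that binds BMP6, was 2.64 ± 0.31 higher at 24 h, 1.88 ± 0.31 at 36 h and 1.09 ± 0.27 at 48 h (adjusted p = 0.000166, 0.00231 and 0.00798). Il6ra, the interleukin-6 receptor, was 1.55 ± 0.38 higher at 36 h (adjusted p = 0.0149). A further 3 genes are named after their values were seen, since they fell at each time with TMM factors: Bmp2, the other endothelial ligand (-1.87, -0.93 and -0.94, adjusted p = 0.000425, 0.0206 and 0.00388), Tmprss6, the protease that restrains hepcidin (-0.91, -0.60 and -0.75, adjusted p = 0.000161, 0.00339 and 0.00013), and Hfe, the haemochromatosis protein (-0.84, -0.51 and -0.48, adjusted p = 0.000333, 0.00859 and 0.00211). On total counts these 3 were called at 24 h (-1.55, -0.59 and -0.52, adjusted p = 0.000475, 0.00169 and 0.00565) and at neither later time, and Hfe turned to 0.05 at 48 h.

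Transcripts of Aco1 and Ireb2, whose proteins sense iron and bind the hairpins shown above, were lower at 24 h (-0.74 ± 0.15 and -0.71 ± 0.16, adjusted p = 0.00262 and 0.00539) and at 48 h (-0.55 ± 0.12 and -0.70 ± 0.13, adjusted p = 0.00397 and 0.00163), and at 36 h so was Ireb2 (-0.53 ± 0.16, adjusted p = 0.0307). On total counts the call for Aco1 at 24 h was kept (-0.41, adjusted p = 0.0452) and the others were not (Ireb2 -0.38, -0.09 and -0.17 at the 3 times, Aco1 -0.02 at 48 h). Among uptake genes, Slc39a14, a carrier of iron not bound to transferrin, rose by 1.28 ± 0.22 at 24 h and 0.67 ± 0.22 at 36 h (adjusted p = 0.00114 and 0.0429). Scara5, a ferritin receptor, rose by 2.92 ± 1.04 at 24 h (adjusted p = 0.0464), from 2.292 to 16.75 CPM. Slc39a8, a related carrier, fell by 0.88 ± 0.14 at 36 h and 0.56 ± 0.11 at 48 h (adjusted p = 0.00166 and 0.00213), and Steap3, a ferrireductase, fell by 0.36 ± 0.11 at 48 h (adjusted p = 0.0234). On total counts Slc39a8 was called at 36 h (-0.44, adjusted p = 0.0242) and not at 48 h (-0.03), and Steap3 turned to 0.16.

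In the storage group the iron chaperone Pcbp2 fell by 0.34 ± 0.11, 0.42 ± 0.11 and 0.35 ± 0.09 at the 3 times (adjusted p = 0.0267, 0.0149 and 0.00894) and Pcbp1 by 0.49 ± 0.12 at 36 h (adjusted p = 0.0145), but on total counts Pcbp2 was at -0.01, 0.01 and 0.18 and Pcbp1 at -0.05, none of them called. Of 13 genes of haem and mitochondrial iron, 4 rose and 4 fell at 24 h, 2 and 2 at 36 h and 4 and 4 at 48 h. Hmox1, which opens the haem ring and frees its iron, rose from 12.7 CPM at 0 h to 66.7, 35.1 and 62.6 CPM (2.39 ± 0.29, 1.47 ± 0.29 and 2.30 ± 0.27, adjusted p = 0.00021, 0.00561 and 0.000134). Slc48a1, a haem transporter, rose by 1.08 ± 0.16 at 24 h (adjusted p = 0.00045). Alas1, the first enzyme of haem synthesis in liver, fell by 1.78 ± 0.59 at 48 h (adjusted p = 0.0339), but on total counts it was not called (-1.25, adjusted p = 0.0856). Every rise named for the wider list was also called on total counts. That scaling moved the median of all genes upwards at each time, so it could challenge falls but hardly rises.

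The genes most like 3 members were ranked by the root mean square difference of log2 CPM, centred on the 0 h mean, over the 8 injured sections, among 7888 genes. For Hamp these were Cyp39a1 (0.372), Fmo5 (0.483), Cyp3a13 (0.587) and the noncoding RNA Bc1 (0.596). Cyp39a1, an oxysterol hydroxylase, had means of 18.7, 15.6, 34.6 and 29.9 CPM at 0, 24, 36 and 48 h, with 2 unequal 24 h sections (9.268 and 21.92), as Hamp had. For Hamp2 they were Sult2a8 (0.87), AC169509.3 (0.927), Car3 (0.978) and Sucnr1 (1.15), and Sult2a8 went from 613.7 CPM at 0 h to 16.6, 106.9 and 92.6. Tfrc was matched by Ikbke (0.23), Rab3d (0.267), Cd2ap (0.268) and Mpp1 (0.276), and Ikbke, a kinase of innate immune signalling, had means of 17.2, 29.6, 24.1 and 25.3 CPM. This measure describes likeness over few sections and carries no test.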

How the data were processed

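Visium libraries of 11 mouse liver sections were analysed. Per the study's methods and the labels the authors used Space Ranger 1.0.0 and mm10 with Ensembl gene models. The deposited matrices hold raw UMI counts for 31053 genes and 4992 barcodes per section, unfiltered, and the authors' tissue mask was used. The barcodes are the array's own and are listed by all sections. The labels also name Seurat 4.1.1, whose output was not used here. The members and the gene lists were chosen with earlier results of these data known.

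Of the spots under tissue, those with 800 genes or more and no more than 20% of UMIs from mitochondrial genes entered, and counts were summed per section or spot class. Spots were scored after thinning to 2000 UMIs. Sums were tested with edgeR 4.0.16 (filterByExpr, TMM, robust quasi-likelihood fit over all 11 sections, section as a block for spot classes) in R 4.3.3, with Benjamini-Hochberg adjustment over 14821, 11718 (lobule) or 13862 (hepatocyte-poor) genes. DESeq2 1.42.0, total-count scaling, no filter, other spot classes, hepatocyte-rich spots alone, 2-group fits, a block and leaving out each section were alternatives. The steps were tested on simulated data only for 48 h against 0 h and for hepatocyte-poor spots at 48 h. No change was simulated at 24 h, at 36 h or across the lobule. All 10 members are named in every comparison. Of the wider list, at most 2 called genes per role and comparison with 0 h are named, those with the largest change and a mean of at least 5 CPM in a group, and 1 such gene is not reported here. Shares of UMIs carry exact 95% binomial intervals. Positions and transcripts are GENCODE M21 (GRCm38), and promoters are RefSeq (GRCm38.p6).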

Additional observations from a re-analysis of the deposited data

Results flagged for a closer look

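Of the 10 iron genes, 3 differed between times in where their transcripts lay, by the edgeR test of the change in the hepatocyte-poor against hepatocyte-rich difference from 24 h to 48 h. In the same contrast 23.7% of all genes tested were called (10.6% higher and 13.1% lower), so the count of members was near that share. For Slc40a1 the difference changed by 0.73 on the log2 scale (adjusted p = 0.00024), from -0.48 at 24 h to 0.25 at 48 h. The change was 0.76 without 24 h A and 0.70 without 24 h B. On total counts the Slc40a1 difference at 24 h itself was not called. For Hamp2 it changed by -1.52 (adjusted p = 0.000168), from -0.04 to -1.56. The Hamp2 change ranged from -2.60 without 24 h A to -1.05 without 24 h B, and its 24 h end rests on 44 and 26 UMIs in hepatocyte-poor spots. For Tfrc it changed by -0.63 (adjusted p = 0.0157), from 0.39 to -0.24, and this was not called without 24 h A (-0.26, adjusted p = 0.683) or on total counts (-0.46, adjusted p = 0.0714). No member had a section that stood apart from the other 3 at 48 h by Dixon's test, and groups of 2 and 3 sections were not examined.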

How the results depend on the processing

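Of 1690 comparisons of a member's value under another setting, 1518 kept their direction and side of the threshold, 100 lost a call, 30 gained one and 42 turned. On total counts the values that turned were Hamp (0.12) and Ftl1 (0.27) at 24 h, Bmp6 (0.30) at 36 h, Slc40a1 (0.31) and Ftl1 (0.19) at 48 h against 0 h, Tfrc (0.01537) from 24 h to 36 h, Cp (0.003649) from 36 h to 48 h, Fth1 (0.0053) across the lobule, and, in hepatocyte-poor spots, Tfrc (0.0215), Fth1 (0.01806) and Ftl1 (0.04197) at 0 h, Hamp2 (0.33) at 24 h, Tfrc (0.32) and Slc40a1 (0.28) at 36 h, Tfrc (0.31) at 48 h and the change of Fth1 between 24 h and 48 h (0.01252). In hepatocyte-rich spots alone Bmp6 at 36 h (0.08954), Tfrc from 24 h to 36 h (0.22) and Cp from 36 h to 48 h (0.01082) turned. With the lowest 5% of spots taken as hepatocyte-poor, Hamp2 at 24 h was 0.23. With spots under the first percentile of 0 h, Id1 (-2.69) and Slc40a1 (-0.17) at 0 h and Hamp2 at 24 h (0.14) turned, and 1 member was called at 0 h. Without a section block 2 members and 815 of all genes were called across the lobule. With no filter on low counts, 5 members and 3360 of all genes were called in the change between 24 h and 48 h. Fitted on those 2 groups alone, 36 h against 24 h called 0 members (edgeR, 1 gene of all).

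Leaving out 1 section at a time, the members called numbered 6 to 7, 4 to 5 and 4 to 8 against 0 h at the 3 times (4 at 48 h without 0 h replicate 3), 1 to 6 for 36 h against 24 h (1 without 24 h A), 6 to 7 across the lobule and 0 to 1 in hepatocyte-poor spots at 0 h (1 without 48 h C). Against 0 h, the fits without a 0 h or 48 h section called 4839 to 6076, 2709 to 4327 and 4926 to 6104 of all genes. Across the lobule 2309 to 2544 were called without a 0 h section. Ranges of log2 changes that crossed 0 were, at 24 h, Hamp (-1.35 to 0.43) and Ftl1 (-0.25 to 0.11), at 36 h Bmp6 (-0.47 to 0.13), from 24 h to 36 h Trf (-0.39 to 0.00619), Tfrc (-0.36 to 0.24) and Slc40a1 (-0.09439 to 0.25), and from 36 h to 48 h Trf (-0.16 to 0.27) and Cp (-0.27 to 0.11). In hepatocyte-poor spots they were Hamp (-0.97 to 0.05221) and Hamp2 (-0.53 to 1.03) at 24 h, Tfrc (-0.27 to 0.094) and Slc40a1 (-0.44 to 0.14) at 36 h, and the changes between 24 h and 48 h of Hamp (-0.96 to 0.05754) and Ftl1 (-0.009122 to 0.18). The cause of these shifts was not tested.

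Letters A and B are shared by the injured groups, and the labels do not say whether they pair the sections. The correlations below describe this and cannot settle it. The deviations of the A sections of 24 h and 36 h correlated at 0.367, those of 36 h and 48 h at -0.103, and those of 24 h and 48 h at -0.205. With the letter as a replicate block, 36 h against 24 h called 1 member and 82 genes of all, instead of 7 and 2315. Counts over all genes moved by over 1.5 times at 36 h (4329, against 7506 on total counts and 2514 in hepatocyte-rich spots), at 48 h (6552, against 3613 in hepatocyte-rich spots) and for 48 h against 36 h (452, against 1224 by DESeq2 and 91 in hepatocyte-rich spots). Leaving out 1 section moved them as far at 36 h (2643 to 2770 without 36 h B or 0 h replicate 2 or 3), for 36 h against 24 h (450, 903 and 1338 without 24 h A, 24 h B and 36 h B), for 48 h against 36 h (45 to 1130, for each section but those of 24 h), and in hepatocyte-poor spots at 0 h (60 to 93 without a 0 h section, 641 without 36 h A and 637 without 48 h C), at 24 h (2140 without 24 h B), at 36 h (2907 without 36 h B) and for the change between 24 h and 48 h (1411 without 24 h A). Across the lobule 2753 genes became 815 without the block. For 48 h against 36 h, edgeR called 0 genes with the letter block and 0 with those groups alone. Hepatocyte-poor spots taken under the first percentile of 0 h gave 2523 genes at 24 h, 3068 at 36 h and 1439 for the change between 24 h and 48 h, instead of 4136, 4873 and 3281. At 0 h 378 genes became 627 with the lowest 5% of spots, 574 under the first percentile and 605 with no filter. Depth limits Bmp6, Tfrc and, at 24 h, Hamp2 most, and 1 mouse per time point limits every comparison.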
